A study of Mus musculus with 24 samples.

Results

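Paw skin from mice injected locally with an agonist of the lymphotoxin beta receptor (LTβR) was profiled by sequencing of polyadenylated RNA and set against IgG-injected skin. The comparison used 6 of the 24 libraries of the series, chosen by their labels: 3 of hind paw skin from the day-6 agonist group and 3 of hind paw skin from IgG controls. All mice were male, of strain C57 and aged 8 to 12 weeks. The day-6 mice had received 2 intraplantar injections, 10 µg each, of an agonistic antibody to LTβR, and the control mice had received 10 µg of IgG by the same route, with tissue taken 1 day later. A group of 3 paw libraries taken 1 day after agonist injection entered the same fit and served as a further reference. Day 6 therefore differed from the controls in agonist, number of injections and time since injection, which cannot be told apart here. The labels disagree on whether the 6 days run from the earlier or the later injection, so day 6 is used as the name of the group. Samples were punch biopsies, so each held epidermis, dermis and whatever lay beneath, and the labels do not say whether each came from a separate animal.

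LTβR belongs to the tumour necrosis factor receptors and is found on stromal, endothelial, epithelial and myeloid cells, and its ligands are lymphotoxin heterotrimers and LIGHT. Its engagement removes the TRAF3 brake on the kinase NIK, which leads to processing of p100, the product of Nfkb2, into p52 and to nuclear entry of p52 with RelB, the non-canonical NF-κB pathway. In lymphoid tissue the pathway organises stromal and endothelial cells, and in skin the resident macrophages and dendritic cells are replenished in part by CCR2-bearing monocytes from blood.

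The libraries held 24228438 to 26164087 counts in controls, 25724749 to 36713608 on day 1 and 32658124 to 41037458 on day 6. Keratinocyte differentiation genes summed to 102200 to 175000 CPM (counts scaled to a common library size) in controls and 111700 to 142700 CPM on day 6, which fits the labelled tissue. Skeletal muscle genes had list scores of -5.83, 1.17 and 1.06 in controls 1, 2 and 3 and of 1.04, -1.09 and -0.10 on day 6, where a score is the mean centred log2 CPM over the list, so control 1 held little muscle RNA. Stress keratinocyte genes, which are induced in injured epidermis, scored 1.32, 1.33 and -0.02 in the controls and -1.27, 0.39 and -1.13 on day 6, so controls 1 and 2 were high and day-6 libraries 1 and 3 low. Both scores overlapped between the groups.

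On day 6, 102 of 15287 tested genes rose and 6 fell against the controls (edgeR quasi-likelihood test, Benjamini-Hochberg adjusted p under 0.05), which is 0.667% and 0.0392% of the genes tested. Among genes whose mean log2 CPM was not below 0, the largest increases were in genes of myeloid receptors and effectors: Cybb rose 5.67-fold, Ccr2 5.58-fold, Mpeg1 5.34-fold and C3 5.22-fold. Of the 102, 85 rose more than 2-fold. Lists of leukocyte, Fc receptor, class II, innate sensor, chemokine receptor, complement and lysosomal genes together held 57 of the 102. These lists were written with earlier results of these data known, and the share of all tested genes in them was not counted. The largest fall was that of Saa3, at 18.2-fold. The median log2 fold change of the genes that rose was 1.47, with a range of 0.52 to 2.66, against a median of -0.01 over all genes tested. At an unadjusted p under 0.05 there were 935 positive genes, 6.12% of those tested, and 554 negative genes, 3.62%. Values written with ± below are log2 fold changes of day 6 minus control with their SE, n = 3 per group, unless named otherwise. Each SE was derived from the log2 fold change and the statistic of the same test, in the fit that included the day-1 libraries. In bulk tissue more cells of a type and more RNA per cell cannot be told apart.

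The day-6 libraries differed among themselves in the levels of the genes that rose. Library 1 was the highest of the 3 for 77 of the 102 genes that rose, and library 3 the lowest for 89. The same ranks were not counted over all tested genes. No day-6 library overlapped a control library for any of the 102, a pattern that 8.22% of all tested genes showed in this direction and 5.87% in the other. The 102 were called from these same libraries, so their lack of overlap is no separate support for the calls. The mean of the day-1 libraries lay within the range of the controls for 42 of the 102 genes. The share of all tested genes with this pattern was not counted, and a day-1 mean outside that range is not a call.

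The number of calls varied with the libraries in the fit: it was 47 without control 1, the library with little muscle RNA, 45 and 65 without day-1 library 1 or 3, and 0 in each fit lacking control 2 or 3 or the first or second day-6 library, where the smallest adjusted p was 0.0581 to 0.0709. It was also 0 with the fit restricted to the 6 libraries compared, with 1209 genes at an unadjusted p under 0.05, and 0 with the stress keratinocyte score as a covariate, with 890, while DESeq2 called 505 genes and limma voom 153.

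**Figure D1:**
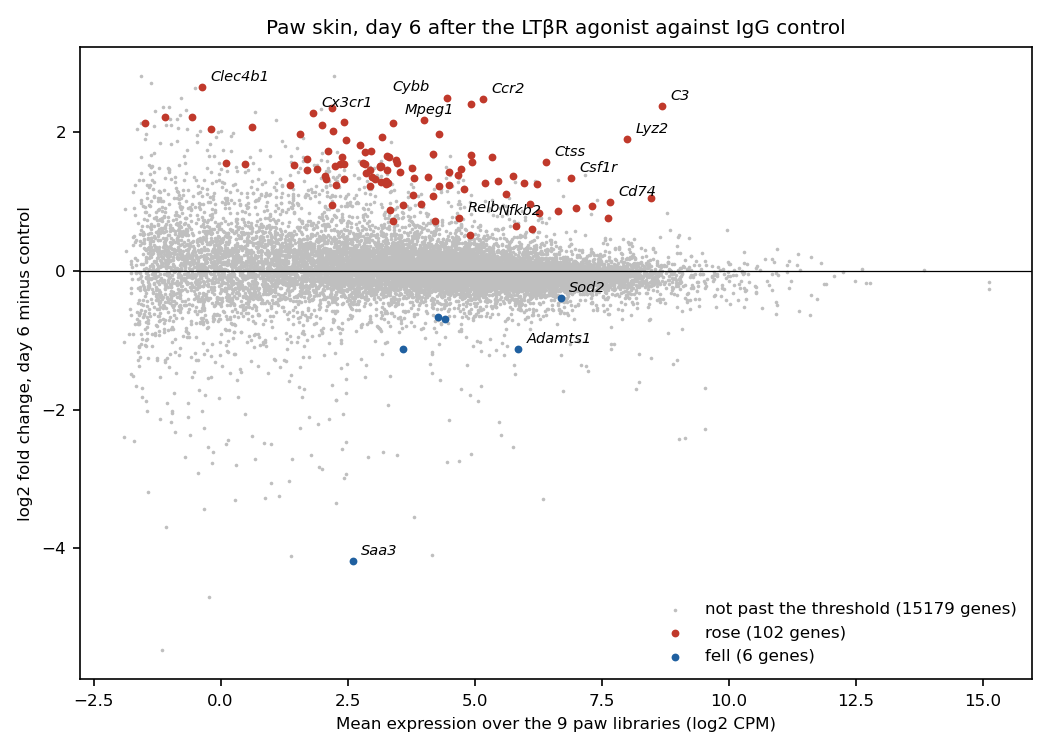
Log2 fold change of day 6 minus control (vertical axis) against mean log2 CPM over the 9 paw libraries (horizontal axis) for all 15287 tested genes, with the 102 genes that rose in red and the 6 that fell in blue. The genes that rose lie between mean log2 CPM of -1.48 for Clec2i, named only as this end point after its values were seen, and 8.69 for C3, while Saa3, at -4.19, is the lowest of the blue points.

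Ccr2, Cx3cr1 and Csf1r, receptors of monocytes and macrophages, were among the genes that rose. Ccr2, the receptor for the chemokine CCL2 that draws monocytes from blood, was at 17.8, 16.4 and 8.84 CPM in controls and 96.6, 80.5 and 62.7 CPM on day 6. All day-6 libraries stood well above all controls, of which control 3 was the lowest. Its log2 fold change was 2.48 ± 0.31 (SE, n = 3 per group, edgeR adjusted p = 0.0179). Cx3cr1, the fractalkine receptor of patrolling monocytes and tissue macrophages, rose from 0.765, 1.56 and 1.85 CPM to 8.46, 7.04 and 4.85 CPM, a log2 fold change of 2.28 ± 0.38. Csf1r, the receptor for the growth factors CSF1 and IL-34 on which macrophages depend, rose from 68.3, 85.2 and 81.8 CPM to 226, 209 and 161 CPM, a log2 fold change of 1.34 ± 0.16. In these 3 genes the day-6 libraries kept the same order, with library 1 highest and library 3 lowest.

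Of 38 tested macrophage and monocyte genes, 12 rose and 0 fell, and 36 had a positive log2 fold change with a median of 1.34. Mpeg1, which encodes a pore-forming protein of the phagosome, was at 10.4, 15.8 and 9.67 CPM in controls and 71.98, 62.9 and 56.4 CPM on day 6. Emr1, which encodes the macrophage surface protein F4/80, had a log2 fold change of 1.98 ± 0.25, Cd33, a myeloid lectin gene, of 2.14 ± 0.25, and Lyz2, the lysozyme of macrophages and neutrophils, of 1.91 ± 0.29. Lyz2 reached 591, 563 and 346 CPM from 144, 157 and 98.7 CPM. Itgam, the CD11b subunit of complement receptor 3, rose from 25.2, 23.9 and 19.8 CPM to 80.9, 88.2 and 47.1 CPM. Folr2, a folate receptor of resident macrophages, and Aif1, an actin-binding protein of macrophages also called Iba1, lay outside the naming rule and were chosen after their values were seen; they had log2 fold changes of 1.68 ± 0.28 and 1.62 ± 0.26. The whole list summed to 964 to 1179 CPM in controls and 1713 to 2358 CPM on day 6. Without control 1, 6 members of the list passed.

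**Figure D2:**
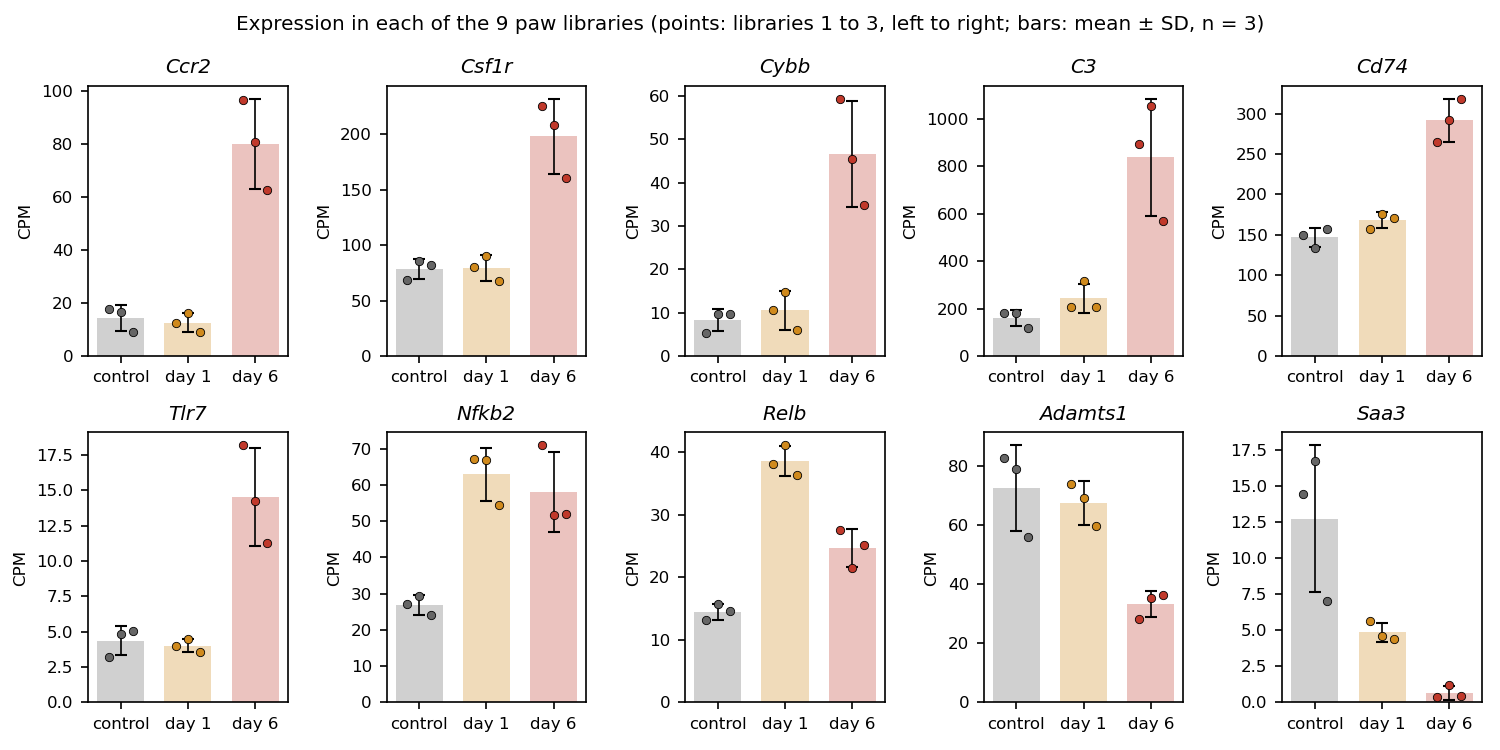
CPM of 10 genes (vertical axes) in the control, day-1 and day-6 paw libraries, with points for libraries 1 to 3 from left to right and bars for the mean ± SD of 3 libraries. In the first 6 panels the day-6 libraries stand above all others, in the Nfkb2 and Relb panels the day-1 libraries are already high, and in the Adamts1 and Saa3 panels the day-6 libraries are the lowest.

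The transcription factor genes Sfpi1, Irf8 and Irf5 were also among those that rose. Sfpi1, the older symbol of the gene for PU.1, which drives macrophage differentiation, was at 8.10, 9.66 and 8.57 CPM in controls and 24.7, 24.3 and 17.5 CPM on day 6, a log2 fold change of 1.34 ± 0.16 with adjusted p = 0.0147. Irf8, a partner of PU.1 in monocytes and dendritic cells, rose from 3.58, 4.98 and 4.28 CPM to 13.3, 10.97 and 9.88 CPM, a log2 fold change of 1.41 ± 0.20. Irf5, an interferon regulatory factor of inflammatory macrophages that was chosen after its values were seen, rose by 0.52 ± 0.08, the smallest change among the 102. In all 3 genes each day-6 library exceeded each control.

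Because PU.1 binds purine-rich sites around a GGAA core, the promoters of the genes that rose were searched on both strands for the letters GAGGAAG. The windows ran from 250 bases before to 50 bases after each transcript start and were taken from RefSeq on GRCm38.p6, while the counts were made on mm9, so the windows were matched by gene symbol. Of the 102 genes, 76 had a window, and 23 of these held the motif, or 30.3%, against 16.2% of all tested genes with a window and 13.6% of all windows of that length. A match describes the letters and not binding. The windows of 3 of these genes are shown, with the match in capitals, because they span the receptor, kinase and protease groups described here: Itgam at chr7:128062390-128062689 on the plus strand, Btk at chrX:134583091-134583390 on the minus strand and Ctss at chr3:95526536-95526835 on the plus strand, each written along the strand of its gene.
Itgam: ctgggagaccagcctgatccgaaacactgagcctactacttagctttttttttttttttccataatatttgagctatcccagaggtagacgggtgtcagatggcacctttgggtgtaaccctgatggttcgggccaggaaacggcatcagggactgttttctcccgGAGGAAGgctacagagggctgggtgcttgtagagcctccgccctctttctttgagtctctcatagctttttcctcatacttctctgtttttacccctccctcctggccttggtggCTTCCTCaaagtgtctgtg
Btk: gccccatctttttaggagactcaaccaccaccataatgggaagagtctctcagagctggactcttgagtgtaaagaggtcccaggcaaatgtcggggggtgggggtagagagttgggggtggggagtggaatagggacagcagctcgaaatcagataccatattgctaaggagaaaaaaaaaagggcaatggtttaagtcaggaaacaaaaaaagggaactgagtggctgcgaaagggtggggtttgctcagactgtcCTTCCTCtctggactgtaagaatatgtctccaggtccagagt
Ctss: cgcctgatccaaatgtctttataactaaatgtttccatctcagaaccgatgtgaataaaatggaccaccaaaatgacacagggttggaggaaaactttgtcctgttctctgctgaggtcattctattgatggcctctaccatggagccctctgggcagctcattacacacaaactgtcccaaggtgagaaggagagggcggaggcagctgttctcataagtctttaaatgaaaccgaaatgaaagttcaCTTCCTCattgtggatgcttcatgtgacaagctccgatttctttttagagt

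Of 24 tested genes of Fc receptors, related receptors and their signalling, 7 rose and 0 fell, with 23 positive and a median log2 fold change of 1.15. Tyrobp, which encodes the adaptor DAP12, was at 17.96, 18.9 and 12.9 CPM in controls and 51.2, 49.5 and 37.7 CPM on day 6, a log2 fold change of 1.48 ± 0.19 with adjusted p = 0.0170. Fcgr3, a low-affinity receptor for IgG, rose from 19.6, 17.9 and 13.1 CPM to 49.96, 44.5 and 37.96 CPM, a log2 fold change of 1.39 ± 0.19. The C-type lectin receptors Clec4a3 and Clec4a1 rose by 2.15 ± 0.28 and 1.36 ± 0.23 on the log2 scale, and the kinase gene Btk and the adaptor gene Lat2 by 1.47 ± 0.23 and 0.73 ± 0.12. Inpp5d, which encodes SHIP1, a lipid phosphatase that restrains these receptors, was chosen after its values were seen and rose by 0.97 ± 0.17. The other tested IgG receptors Fcgr1, Fcgr2b and Fcgr4 and the shared chain Fcer1g did not pass.

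Genes of leukocyte adhesion, migration and the oxidative burst formed the list with the most calls, 17 of 36 tested, with 35 positive and a median of 1.32. Cybb, the catalytic gp91 subunit of the phagocyte NADPH oxidase, was at 5.32, 9.58 and 9.74 CPM in controls and 59.3, 45.5 and 34.9 CPM on day 6. Its log2 fold change of 2.50 ± 0.37 was the largest among the genes the naming rule covers, which asks for a mean log2 CPM of at least 0. Selplg, the selectin ligand PSGL-1 with which leukocytes roll on endothelium, rose from 7.73, 9.17 and 7.78 CPM to 24.8, 24.4 and 20.2 CPM, a log2 fold change of 1.49 ± 0.14. Its edgeR adjusted p of 0.0147 was the smallest, a value shared by 23 genes. Myo1f and Myo1g, class I myosins of leukocytes, rose by 1.94 ± 0.25 and 1.6 ± 0.19, the tetraspanin gene Cd37 by 1.89 ± 0.22, the actin-bundling plastin gene Lcp1 by 1.29 ± 0.17 and Cd52, a short glycoprotein of leukocyte membranes, by 1.30 ± 0.15.

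Further genes of this kind were chosen after their values were seen. Ptprc, which encodes the pan-leukocyte phosphatase CD45, went from 14.8, 16.04 and 12.2 CPM in controls to 43.1, 43.4 and 28.98 CPM on day 6, a log2 fold change of 1.42 ± 0.20. Spn, which encodes the sialoglycoprotein CD43, rose by 1.52 ± 0.18, and Pik3cg, a phosphoinositide 3-kinase used by chemokine receptors, by 1.26 ± 0.16. Sash3, a lymphocyte adaptor gene named by the rule, rose by 1.73 ± 0.21. Spn, Pik3cg and Sash3 belong to no list. Without control 1, 6 members of the motility list passed.

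Of 30 tested genes of Toll-like receptors and other innate sensors 6 rose and 0 fell, with 25 positive and a median of 0.33. Tlr7, which senses single-stranded RNA, was at 3.22, 4.85 and 5.07 CPM in controls and 18.2, 14.2 and 11.3 CPM on day 6, a log2 fold change of 1.73 ± 0.23 with adjusted p = 0.0209. Tlr9, which senses DNA, rose by 1.54 ± 0.26 from a mean of 0.844 ± 0.0743 CPM (SD, n = 3), and Unc93b1, the chaperone that carries both to the endosome, rose from 23.8, 28.3 and 23.1 CPM to 72.2, 60.3 and 49.8 CPM. Pld4, an endolysosomal nuclease that degrades single-stranded nucleic acids, rose from 6.16, 7.20 and 7.82 CPM to 38.9, 29.9 and 27.3 CPM, a log2 fold change of 2.18 ± 0.27. Cd180 and Ly86, which encode the receptor RP105 and its partner MD-1, rose by 2.36 ± 0.41 and 1.82 ± 0.26. Ticam2, an adaptor of TLR4 signalling, rose by 1.53 ± 0.23, and Tifab, a relative of the TRAF6 regulator TIFA, by 2.02 ± 0.29. Pld4 and Tifab belong to no list. Cd180 was at 1.25, 2.51 and 1.42 CPM in controls and 11.4, 9.99 and 5.13 CPM on day 6, so the larger fold rested on low levels. Without control 1 the list had 1 member past the threshold.

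Of 22 tested complement genes 5 rose and 0 fell, with 19 positive and a median of 0.77. C3, the central component from which the opsonin C3b is cut, was at 181, 180.2 and 119.6 CPM in controls and 892, 1053 and 569 CPM on day 6. Every day-6 library exceeded every control, with day-6 library 3 well below the other day-6 libraries, and the log2 fold change was 2.38 ± 0.29 with adjusted p = 0.0147. C1qa and C1qc, chains of the recognition subunit C1q that macrophages make, rose from 47.4, 46.8 and 38.04 to 125, 114 and 80.6 CPM and from 52.6, 57.6 and 46.7 to 149, 132 and 92.2 CPM. Cfp, the alternative pathway stabiliser properdin, rose by 1.24 ± 0.17. The fifth member was Itgam, described above. C1qa and C1qc had no overlap between the groups but were near the threshold, with adjusted p of 0.0340 and 0.0493, and without control 1 the list had 1 member left.

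Lysosomal genes rose in part, 4 of 29, with 22 positive and a median of 0.36. Ctss, cathepsin S, which trims the invariant chain during class II loading, was at 52.03, 59.7 and 42.9 CPM in controls and 168, 164 and 127 CPM on day 6, a log2 fold change of 1.57 ± 0.17. Ctsc, a protease that activates granule enzymes, rose by 0.96 ± 0.15, Grn, the progranulin gene, by 0.94 ± 0.16 and Man2b1, the lysosomal alpha-mannosidase, by 0.61 ± 0.10. The other 25 tested lysosomal genes did not pass.

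Of 9 tested genes of MHC class II presentation 6 rose and 0 fell, all 9 were positive and in all 9 no day-6 library overlapped a control. H2-Aa, the alpha chain of the I-A molecule, was at 102, 90.2 and 96.9 CPM in controls and 159, 178 and 209 CPM on day 6, a log2 fold change of 0.92 ± 0.11. Its partner H2-Ab1 rose by 0.87 ± 0.10 and H2-Eb1, the beta chain of I-E, by 0.84 ± 0.09. Cd74, the invariant chain that guides class II molecules to the endosome, rose from 149.7, 134 and 157 CPM to 265, 292 and 318 CPM. H2-DMa and H2-DMb1, chains of the peptide editor H2-DM, rose by 1.29 ± 0.16 and 1.26 ± 0.13. All 6 had adjusted p = 0.0147. Day-6 library 3 was the highest of the day-6 libraries for 6 of the 102 genes that rose, and these were the 6 class II genes. All 6 also passed without control 1 and with the muscle score as a covariate. Each passed in only 2 of the 6 fits that left out a control or day-6 library. None passed in the fit of the 6 libraries alone or with the stress keratinocyte score as a covariate.

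Class II promoters carry a Y box, an inverted CCAAT element bound by NF-Y, and the windows were searched on both strands for TGATTGG. Of the 9 tested class II genes 6 had a window and 5 of these held the motif, or 83.3%, against 11% of all tested genes with a window and 7.82% of all windows. Among all genes that rose, 5 of 76 with a window held it, or 6.58%. Of the 6 genes that rose, H2-DMa had 2 windows without the motif, and Cd74 and H2-Ab1 had no window in the table. The windows of the other 3 are shown with the motif in capitals: H2-Aa at chr17:34287774-34288073 on the minus strand, H2-Eb1 at chr17:34305617-34305916 on the plus strand and H2-DMb1 at chr17:34152941-34153240 on the plus strand, from RefSeq on GRCm38.p6 and written along each gene. The match begins 50, 61 and 63 bases before the transcript start, in the same orientation in all 3.
H2-Aa: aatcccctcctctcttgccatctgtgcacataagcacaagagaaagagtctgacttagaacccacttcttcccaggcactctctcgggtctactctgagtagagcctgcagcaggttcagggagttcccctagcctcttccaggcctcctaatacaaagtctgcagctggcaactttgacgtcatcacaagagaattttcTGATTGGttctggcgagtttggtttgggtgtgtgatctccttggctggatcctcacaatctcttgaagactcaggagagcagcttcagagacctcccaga
H2-Eb1: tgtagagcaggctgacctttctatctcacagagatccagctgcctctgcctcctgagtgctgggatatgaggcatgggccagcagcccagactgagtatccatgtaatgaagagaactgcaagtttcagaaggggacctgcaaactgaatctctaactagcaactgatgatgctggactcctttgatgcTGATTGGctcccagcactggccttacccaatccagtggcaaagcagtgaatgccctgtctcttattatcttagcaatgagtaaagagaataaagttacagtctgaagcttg
H2-DMb1: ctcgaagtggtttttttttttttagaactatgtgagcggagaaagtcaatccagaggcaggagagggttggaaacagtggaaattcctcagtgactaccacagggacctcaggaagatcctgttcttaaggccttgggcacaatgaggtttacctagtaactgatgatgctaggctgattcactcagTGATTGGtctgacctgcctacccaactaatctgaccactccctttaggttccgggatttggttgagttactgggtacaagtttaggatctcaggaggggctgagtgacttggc

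Of the genes of class I presentation 1 rose. B2m, the light chain of all class I molecules, was at 136, 147 and 156 CPM in controls and 265, 254 and 231 CPM on day 6, a log2 fold change of 0.77 ± 0.11 with adjusted p = 0.0257. It was the only 1 of 18 tested class I genes to pass, with 16 positive and a median of 0.46. Of 19 dendritic and Langerhans cell genes, Irf8 alone passed, with 15 positive and a median of 0.81. The summed level of that list overlapped between the groups, at 461 to 560.2 CPM in controls and 461 to 578 CPM on day 6. Its score, in which each gene counts equally, did not overlap. It was -0.356, -0.249 and -0.252 in controls and 0.377, 0.432 and 0.309 on day 6.

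Several cytokine and lipid mediator receptors rose. Il2rg, the shared gamma chain of the receptors for IL-2, IL-7 and IL-15, was at 3.50, 3.45 and 3.34 CPM in controls and 12.7, 13.2 and 8.08 CPM on day 6, a log2 fold change of 1.72 ± 0.26. Il10ra, a subunit of the receptor for the anti-inflammatory cytokine IL-10, rose by 1.10 ± 0.18. Ptafr, the receptor for platelet-activating factor, rose by 2.10 ± 0.36 to 9.15, 8.22 and 5.41 CPM. Alox5, the 5-lipoxygenase that begins leukotriene synthesis, was chosen after its values were seen and rose by 1.08 ± 0.15. P2ry12, a receptor for ADP, rose by 1.46 ± 0.25 and Gpr34, a receptor for lysophosphatidylserine, by 1.56 ± 0.27. Both are known from microglia and other macrophages, and both were chosen after their values were seen.

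Further genes that rose came from several other groups. Ngfr, the low-affinity neurotrophin receptor p75, was at 4.47, 5.10 and 4.99 CPM in controls and 13.8, 9.38 and 13.4 CPM on day 6, a log2 fold change of 1.33 ± 0.18. It was the only 1 of 15 Schwann cell genes and the only 1 of 23 tested TNF family genes to pass. Tspan32, a haematopoietic tetraspanin gene, rose by 2.07 ± 0.30. The remaining examples were chosen after their values were seen: Dclk1, a microtubule-associated kinase gene, rose by 1.67 ± 0.28, Rassf4, a Ras association domain gene, by 1.58 ± 0.17, the selenium carrier gene Sepp1 by 1.05 ± 0.17 to 680.2, 511 and 483 CPM, the galactose lectin gene Mgl2 of dermal macrophages and dendritic cells by 1.46 ± 0.22, and the cytokine subunit gene Ebi3 by 1.56 ± 0.28. Clec4b1, a lectin receptor gene of low expression, had the largest fitted increase, 2.66 ± 0.42, from 0.242, 0.288 and 0.0786 CPM to 1.46, 1.18 and 1.24 CPM.

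In the list for the LTβR pathway itself, 3 of 24 genes rose and 0 fell, with 16 positive and a median of 0.13. For comparison, 0.667% of all genes tested rose. The list was written with earlier results of these data known, and the difference between these shares was not tested. Nfkb2, the p100 precursor of p52, was at 27.2, 29.5 and 24.1 CPM in controls and 70.9, 51.6 and 51.9 CPM on day 6, a log2 fold change of 1.11 ± 0.15 with adjusted p = 0.0209. Relb, the partner of p52, rose from 13.2, 15.7 and 14.7 CPM to 27.5, 21.4 and 25.2 CPM, a log2 fold change of 0.77 ± 0.12. Nfkbie, the inhibitor IκBε, rose from 3.06, 4.81 and 3.89 CPM to 15.8, 11.1 and 10.4 CPM, a log2 fold change of 1.67 ± 0.23. Each day-6 library exceeded each control in all 3 genes. Relb did not pass when any of the 6 libraries compared was left out, with log2 fold changes of 0.68 to 0.87.

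The other members did not pass. The receptor gene Ltbr was at 48.4, 55.8 and 40.1 CPM in controls and 49.9, 45.4 and 39.3 CPM on day 6. Its ligand genes Lta, Ltb and Tnfsf14 stayed below 1 CPM in all 6 libraries, with log2 fold changes of -1.36 ± 0.50, 1.08 ± 0.48 and 0.94 ± 0.47. Map3k14, which encodes NIK, was at 0.46 ± 0.17, and the genes of the complex that restrains it, Traf3, Traf2, Birc2 and Birc3, were at 0.33 ± 0.17, 0.40 ± 0.11, 0.07 ± 0.09 and 0.39 ± 0.11. The IκB kinase genes Chuk, Ikbkb and Ikbkg were at -0.09 ± 0.10, 0.02 ± 0.09 and -0.08 ± 0.07. The subunits Nfkb1, Rela and Rel were at -0.02 ± 0.09, 0.01 ± 0.08 and -0.24 ± 0.18. Among feedback regulators Nfkbia was at 0.18 ± 0.15, Nfkbib at 0.13 ± 0.11, Tnfaip3 at 0.37 ± 0.17 and Tnip1 at 0.12 ± 0.13, while Nfkbiz and Bcl3 were at -0.70 ± 0.14 and -0.96 ± 0.50. For Nfkbiz, an atypical IκB induced by IL-1 and IL-17, every day-6 library lay below every control, with adjusted p = 0.0749. Signs of Ltbr, Chuk, Ikbkb, Nfkb1, Rela, Nfkbia, Nfkbib, Tnip1 and Bcl3 turned under at least 1 alternative, so no direction is given for them. Of 6 tested genes by which LTβR organises lymphoid tissue none passed, with Vcam1 at 1.65 ± 0.40, Cxcl13 at 1.14 ± 0.70 and Tnfsf13b at 0.42 ± 0.30. The lymphoid chemokine genes Ccl19, Ccl21a and Ccl21b had 0 counts in all 9 paw libraries and Madcam1 had at most 2, too few to test.

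Promoter windows of this list were searched for the κB-like letters GGGNNTTNC on both strands, where N is any base. Of 24 tested genes 20 had a window, and 14 of these held the motif, or 70%, against 19.6% of all tested genes with a window and 15.2% of all windows. Among the genes that rose, 16 of 76 with a window held it, or 21.1%, near the share of all tested genes. The 70% therefore describes the list, most of whose members did not pass. A window of Nfkb2 at chr19:46304487-46304786 and the window of Nfkbie at chr17:45555450-45555749, both on the plus strand of GRCm38.p6 from RefSeq, are shown with matches in capitals, since both genes rose. The Nfkb2 window held 4 matches in overlapping pairs, beginning 39, 38, 11 and 10 bases before the start, and the Nfkbie window held 1 match beginning 105 bases before it.
Nfkb2: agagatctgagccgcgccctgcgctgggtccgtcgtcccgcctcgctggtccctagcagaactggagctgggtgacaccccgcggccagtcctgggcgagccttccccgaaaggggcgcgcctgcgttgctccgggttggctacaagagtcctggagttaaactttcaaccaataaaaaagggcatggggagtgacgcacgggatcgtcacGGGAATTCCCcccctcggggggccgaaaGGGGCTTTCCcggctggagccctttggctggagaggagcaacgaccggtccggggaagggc
Nfkbie: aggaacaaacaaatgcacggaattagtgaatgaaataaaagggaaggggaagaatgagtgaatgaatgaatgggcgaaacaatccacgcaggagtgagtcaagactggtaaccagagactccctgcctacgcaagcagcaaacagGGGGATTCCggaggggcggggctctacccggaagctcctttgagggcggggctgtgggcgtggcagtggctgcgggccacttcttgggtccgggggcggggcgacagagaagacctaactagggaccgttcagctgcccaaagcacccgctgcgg

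**Figure D3:**
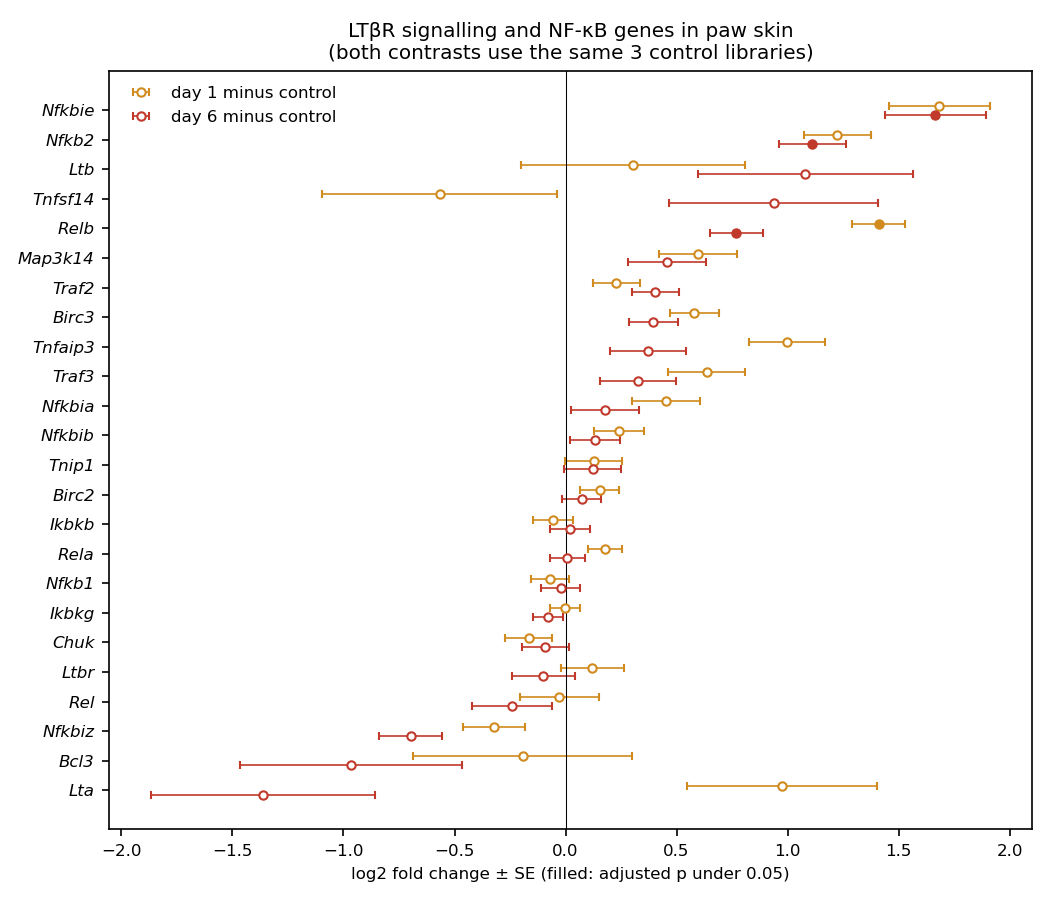
Log2 fold change ± SE (horizontal axis) for the 24 tested members of the LTβR and NF-κB list, for day 6 minus control in red and day 1 minus control in orange, with filled points where the adjusted p was under 0.05. Nfkbie, Nfkb2 and Relb are filled for day 6, at 1.67, 1.11 and 0.77, and Relb alone is filled for day 1, at 1.41.

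The 6 genes that fell included acute-phase, matrix protease and antioxidant genes. Saa3, a serum amyloid A protein made locally in inflamed tissue, was at 14.5, 16.7 and 6.99 CPM in controls and 0.372, 1.23 and 0.435 CPM on day 6, a log2 fold change of -4.19 ± 0.50 with adjusted p = 0.0147. Adamts1 and Adamts9, secreted metalloproteinases that cleave proteoglycans, went from 82.8, 79 and 55.95 to 28.1, 35.2 and 36.4 CPM and from 16.5, 16 and 12.1 to 8.61, 6.56 and 5.25 CPM, log2 fold changes of -1.12 ± 0.17 and -1.12 ± 0.19. Zc3h12c, a relative of the RNase Regnase-1, was at -0.66 ± 0.09, Sod2, the mitochondrial superoxide dismutase, at -0.39 ± 0.07 and the provisional gene 1300014I06Rik, named as the last of the 6 after its values were seen, at -0.68 ± 0.12. Sod2 had the smallest SE of the 6, with 112, 114 and 110.2 CPM in controls and 84.6, 84.6 and 88.01 CPM on day 6.

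Saa3 was the only member of its list of 20 acute-phase and antimicrobial genes to fall, and Lyz2 the only one to rise, with 16 negative and a median of -1.71. The list scored 0.91, 1.43 and -0.03 in controls and -1.19, 0.13 and -1.27 on day 6, so controls 1 and 2 were high here too. Saa3 passed in 2 of the 6 fits that left out a library, those without control 1 and without day-6 library 3. With the stress keratinocyte score as a covariate no gene passed, and the log2 fold changes of Saa3 and of the other called genes named here kept their sign. Of 28 metalloproteinase and inhibitor genes only the 2 Adamts genes passed, with a median of -0.18, and of 17 oxidative stress genes only Sod2, with a median of -0.15. Neither Adamts9 nor Sod2 passed in any of the 6 fits lacking a control or day-6 library.

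**Figure D4:**
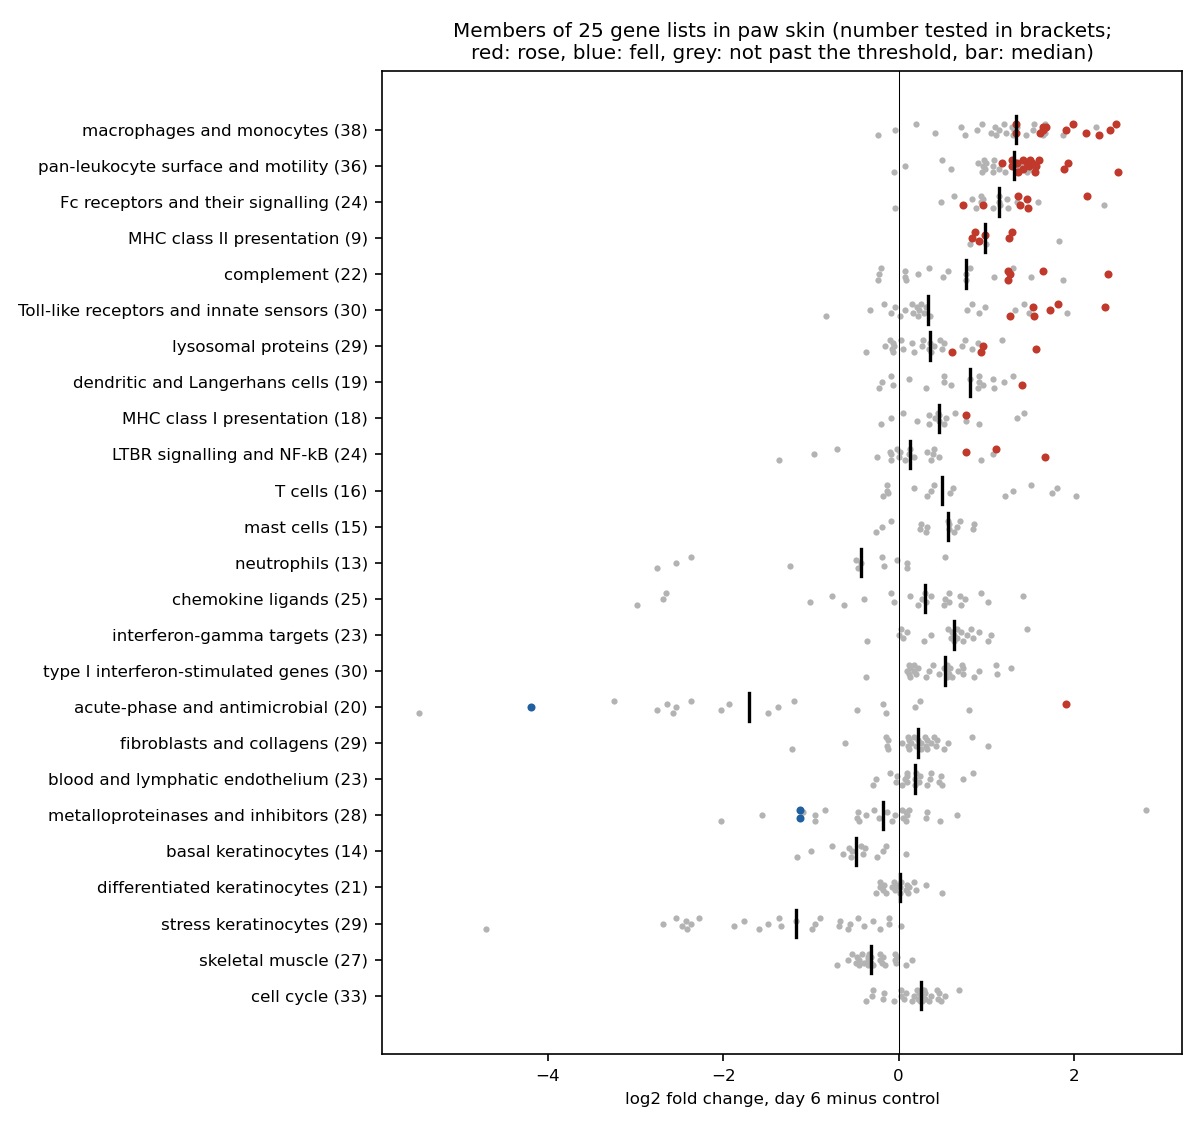
Log2 fold changes of day 6 minus control (horizontal axis) for the tested members of 25 gene lists, with members that rose in red, those that fell in blue, the others in grey and the median of each list as a black bar. The macrophage, leukocyte motility, Fc receptor and class II lists have medians near or above 1, and the stress keratinocyte and acute-phase lists medians below -1 with 1 blue point between them.

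No tested member of the T cell, natural killer or B cell lists passed. Of 16 tested T cell genes 12 were positive, with a median of 0.49; Cd4 was at 1.51 ± 0.31, Cd2 at 2.02 ± 0.43 and Cd28 at 1.75 ± 0.47, with edgeR adjusted p of 0.0821, 0.0879 and 0.189. Cd2, a T and natural killer cell adhesion receptor, was at 0.443, 0.123 and 0.393 CPM in controls and 1.31, 1.32 and 1.30 CPM on day 6. Cd3e had at most 12 counts and Cd8a at most 5 in any paw library, too few to test. Of 3 tested natural killer genes all were positive, with Klrk1 at 1.25 ± 0.38, Klrd1 at 1.06 ± 0.40 and Tbx21 at 0.15 ± 0.86, the last of uncertain sign. Of 7 tested B cell genes 3 were positive, with Tnfrsf17 at 2.06 ± 0.61 and Cd79b at 1.06 ± 0.48, while Cd79a and Ms4a1 had at most 2 counts.

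Granulocyte and mast cell genes did not pass either. Of 13 neutrophil genes 10 were negative, with a median of -0.43; Lcn2 was at -2.75 ± 1.07, S100a8 at -2.54 ± 1.37 and Cxcr2 at -0.48 ± 0.26. The list scored 0.96, 1.67 and -0.67 in controls and -0.55, 1.09 and -1.40 on day 6. S100a8, a calcium-binding alarmin of neutrophils and stressed keratinocytes, was at 155, 201 and 18.9 CPM in controls and 6.98, 56.1 and 1.43 CPM on day 6, so its groups overlapped. Of 15 mast cell genes 12 were positive, with a median of 0.57; the prostaglandin D synthase gene Hpgds was at 0.85 ± 0.17 with adjusted p = 0.0767, the mast cell proteases Cpa3 at 0.86 ± 0.37 and Tpsb2 at 0.63 ± 0.27. Cd200r3, the only tested gene of the eosinophil and basophil list, was at 0.63 ± 0.40.

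No tested gene of the chemokine ligand, nociceptive mediator or IL-1 family lists passed. Of 25 chemokine ligand genes 16 were positive and 9 negative, with a median of 0.30. Cxcl1 and Cxcl5, which attract neutrophils, were at -2.98 ± 0.62 and -2.65 ± 0.70, with adjusted p of 0.0850 and 0.184, and Cxcl1 was at 12.1, 15.01 and 2.40 CPM in controls and 0.886, 1.84 and 0.963 CPM on day 6. Pf4, a platelet and macrophage chemokine, was at 0.94 ± 0.22. Among 28 genes of nociceptive mediators Il6 was at -3.43 ± 0.84, Csf3 at -3.19 ± 0.78 and Tslp at 1.25 ± 0.35, with a median of 0.03. The IL-1 family, 17 genes with a median of -0.04, was led by Il33 at -0.70 ± 0.41, Il18 at 0.38 ± 0.22 and Il1rap at -0.26 ± 0.14. In Cxcl1, Cxcl5, Il6 and Csf3 every day-6 library lay below every control.

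Interferon targets had positive medians with no member past the threshold. Among 23 interferon-gamma targets 22 were positive with a median of 0.64; Serpina3g was at 1.46 ± 0.37, Ifi47 at 1.06 ± 0.47 and Irf1 at 0.61 ± 0.24. Among 30 type I interferon-stimulated genes 29 were positive with a median of 0.54; Parp14 was at 0.92 ± 0.27, Oas2 at 1.12 ± 0.37 and Trim30a at 0.68 ± 0.27. The type I list scored -0.59, -0.17 and -0.07 in controls and 0.32, 0.62 and -0.33 on day 6, so its groups overlapped, and 1 of its 30 members had no overlap between the groups in the positive direction. The interferon-gamma list scored -1.23, -0.35 and -0.34 in controls and 0.40, -0.08 and -0.33 on day 6, so day-6 library 3 was level with controls 2 and 3.

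Epidermal genes did not pass. Of 14 basal keratinocyte genes 13 were negative with a median of -0.48, with the integrin Itga3 at -0.76 ± 0.21, the laminin Lama3 at -0.56 ± 0.17 and Itgb4 at -0.54 ± 0.18. Of 29 stress keratinocyte genes 28 were negative with a median of -1.17, among them Lce3f at -1.34 ± 0.34, Hbegf at -0.95 ± 0.30 and Il24 at -4.71 ± 1.54. Differentiated keratinocyte genes had a median of 0.01 over 21, with Ivl at 0.50 ± 0.22, Tgm1 at -0.22 ± 0.19 and Tgm3 at -0.21 ± 0.16. Hair follicle genes had a median of -1.04 over 20, with Dsg4 at -1.83 ± 0.96, Lgr5 at -0.44 ± 0.27 and Sox9 at -0.28 ± 0.16. The list written for sweat gland had a median of -0.35 over 14, with Scnn1b at -0.68 ± 0.28 and Scnn1g at -0.63 ± 0.21. Melanocyte genes had a median of -0.13 over 7, with Tyr at -0.55 ± 0.59, Tyrp1 at -0.38 ± 0.28 and Pmel at -0.27 ± 0.24.

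**Figure D5:**
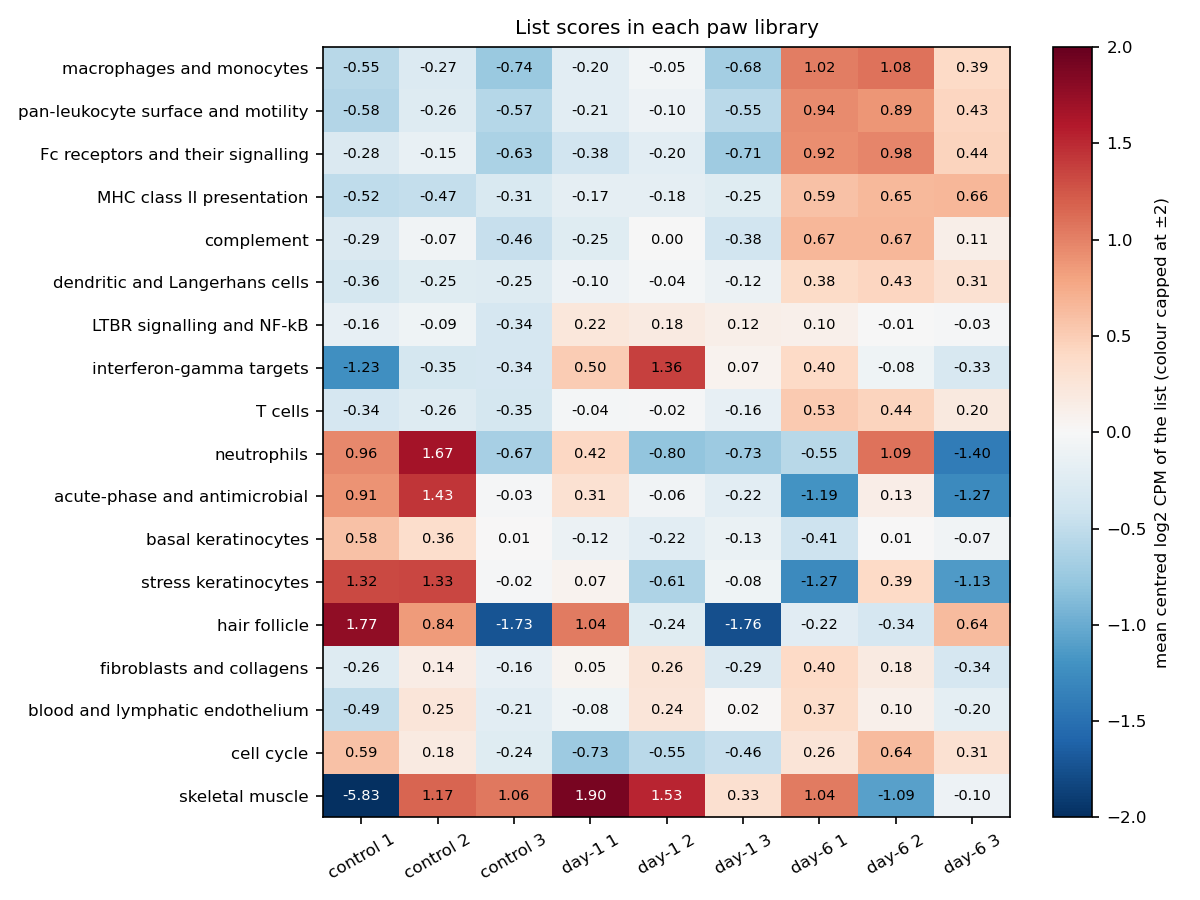
Scores of 18 gene lists (rows) in the 9 paw libraries (columns), as the mean over the list of log2 CPM centred on the mean of the 9 libraries, with the colour capped at 2 in either direction and the value printed in each cell. The macrophage, leukocyte motility, Fc receptor, class II, complement and dendritic lists are positive in the 3 day-6 libraries and negative in the 3 controls. The neutrophil list has scores of both signs in each of these groups. The stress keratinocyte list is high in controls 1 and 2 at 1.32 and 1.33, and the muscle list is at -5.83 in control 1.

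Stromal, vascular and muscle lists had no member past the threshold. Of 29 fibroblast genes 23 were positive with a median of 0.22; Col14a1, a collagen of the reticular dermis, was at 1.01 ± 0.25, Fbn1 at 0.83 ± 0.25 and Dpp4 at 0.43 ± 0.17. Of 23 endothelial genes 18 were positive with a median of 0.19, with Bcl6b at 0.48 ± 0.18, Prox1 at 0.84 ± 0.34 and Reln at 0.46 ± 0.19. The adhesion list, 12 genes with a median of 0.21, held Vcam1, Cd34 at 0.42 ± 0.19 and Cd99l2 at 0.18 ± 0.11. Mural cell genes had a median of -0.07 over 14, with Cnn1 at -0.24 ± 0.30, Acta2 at -0.14 ± 0.25 and Rgs5 at -0.20 ± 0.34, and adipocyte genes of -0.03 over 15, with Plin4 at -0.54 ± 0.36, Cidea at -0.32 ± 0.18 and Pck1 at 0.58 ± 0.42. Skeletal muscle genes had a median of -0.31 over 27, with Actn2 at -0.70 ± 1.36, Myh1 at -0.58 ± 1.22 and Mb at -0.53 ± 1.31. Their large SE goes with control 1: Myh1, a fast myosin heavy chain gene, was at 42.2, 4112 and 3507 CPM in controls 1, 2 and 3. Schwann cell genes other than Ngfr did not pass, with a list median of 0.14, nor did 16 neuronal genes, at 0.24, with Gap43 at 0.62 ± 0.34, Snap25 at 0.47 ± 0.42 and Prph at -0.30 ± 0.23.

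Lists of general cell state also held few or no calls. Cell cycle genes had a median of 0.26 over 33, with 27 positive, and Ccnb2 at 0.69 ± 0.14, Kif23 at 0.48 ± 0.14 and Ccna2 at 0.46 ± 0.14. Oxidative phosphorylation genes had a median of -0.12 over 35, with Uqcrc2 at -0.23 ± 0.12, Ndufa9 at -0.20 ± 0.11 and Ndufa10 at -0.19 ± 0.10. Glucocorticoid-responsive genes had a median of -0.37 over 20, with the metallothioneins Mt1 at -1.06 ± 0.25 and Mt2 at -1.20 ± 0.33 and Cebpd at -0.86 ± 0.25. Immediate early genes had a median of -0.14 over 24, with Fosl1 at -2.07 ± 0.50, Myc at -0.34 ± 0.13 and Btg2 at -0.32 ± 0.17, and circadian genes of -0.17 over 18, with Nfil3 at -0.82 ± 0.25, Npas2 at -0.61 ± 0.25 and Cry1 at -0.41 ± 0.18. Heat shock and unfolded protein genes had a median of -0.10 over 23, with Hspb1 at -0.37 ± 0.18, Dnajb9 at -0.23 ± 0.14 and Atf4 at -0.20 ± 0.10. TGF-beta and Wnt genes had a median of -0.02 over 22, with Tgfb1 at 0.70 ± 0.20, Axin2 at 0.33 ± 0.09 and Dkk3 at -0.60 ± 0.16. Erythroid and platelet genes had a median of -0.40 over 4, with Alas2 at -0.54 ± 0.34 and Ppbp at -0.63 ± 0.39 beside Pf4. Cytokine receptor and SOCS genes had 2 of 33 past the threshold, Il2rg and Il10ra, with a median of 0.27, and chemokine receptors 2 of 17, Ccr2 and Cx3cr1, with a median of 0.26. The TNF family list had a median of 0.39.

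Set against the day-1 agonist libraries, the day-6 libraries had 145 genes higher, 0.949% of those tested, and 12 lower, 0.0785%. This comparison shares its 3 day-6 libraries with that against the controls, so the values are set side by side. Ccr2 was at 12.4, 16.2 and 8.95 CPM on day 1, a log2 fold change of day 6 minus day 1 of 2.68 ± 0.32, and Csf1r at 79.9, 90.5 and 67.7 CPM, a difference of 1.32 ± 0.16. Cd74 was at 157, 176 and 171 CPM on day 1, a difference of 0.80 ± 0.10, and C3 at 206, 315 and 206 CPM, a difference of 1.79 ± 0.28. These 4 genes passed with edgeR adjusted p of 0.0202, 0.0202, 0.0202 and 0.0298. Relb went the other way: it was at 38.1, 41.1 and 36.3 CPM on day 1, above all day-6 libraries, and its difference was -0.64 ± 0.12 (adjusted p = 0.0459). Nfkb2 and Nfkbie were at 67.3, 66.8 and 54.6 CPM and 11.6, 14.8 and 11.4 CPM on day 1, with differences of -0.11 ± 0.15 and -0.02 ± 0.22 that did not pass. Saa3, Adamts1 and Adamts9 were also lower on day 6 than on day 1, with log2 differences of -2.80 ± 0.48, -1.02 ± 0.17 and -1.08 ± 0.19. Of 33 cell cycle genes 8 were higher on day 6 than on day 1, among them Ccnb2 at 1.15 ± 0.14, Ccna2 at 1.15 ± 0.14 and Kif23 at 1.02 ± 0.15, while none passed against the controls. The day-1 libraries scored below the controls on this list. Its scores were 0.591, 0.176 and -0.238 in controls, -0.727, -0.546 and -0.461 on day 1 and 0.257, 0.637 and 0.311 on day 6.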

How the data were processed

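Polyadenylated RNA (500 ng) from hind paw skin was made into stranded libraries and sequenced as 50-base single reads, per the labels' protocols. The submitters' processing notes name bcl2fastq, TopHat2, HTSeq and the mouse build mm9; versions, gene annotation and the strand setting of the counting are not given in the sources used here. The authors deposited raw counts of reads per gene for 22609 genes, and 5 summary lines per library were left out. Reads outside any gene made up 15.1% to 19% of the uniquely aligned reads of a paw library. If counting ignored strand, reads of overlapping genes could be shared.

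Counts of the 9 paw libraries were scaled by TMM, filtered with filterByExpr and fitted with edgeR 4.0.16 (robust quasi-likelihood, R 4.3.3), and p-values were Benjamini-Hochberg adjusted over 15287 genes. The fit was tested on counts simulated for the 9 paw libraries, with changes set in genes averaging at least 1 CPM. It recovered 61 of 100 genes changed 2-fold and 89 of 100 changed 4-fold, with 5 false calls among 155. A gene that did not pass may therefore still have changed. The labels do not say whether libraries came from separate animals, so the p-values reflect only how much these samples varied, which may be technical. The alternatives used RLE and upper-quartile scaling, no and stricter filters (1 CPM in 3 libraries), DESeq2 1.42.0, limma 3.58.1 voom, the 6 libraries alone, a replicate block, list scores as covariates (from log2 CPM with a prior count of 2) and each library left out.

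The comparison and the 50 gene lists were chosen with earlier results of these data known. Of 1073 listed symbols, 1052 matched as written and 6 by an alias. Named genes were, among calls without overlap between groups and with an average log2 CPM not below 0, the 20 with the largest increase and all that fell, apart from provisional models; up to 6 called members per list by smallest p, or the first 3 by p where none was called; and all LTβR and NF-κB members. Some genes that this rule names are not reported here. Promoter windows came from RefSeq (GRCm38.p6).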

Additional observations from a re-analysis of the deposited data

Results flagged for a closer look

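The day-6 libraries differed from the day-1 libraries for 63 of the 194 named genes, by the contrast of day 6 minus day 1 in the same edgeR fit (adjusted p from 0.0202 to 0.0495, n = 3 per group). The numbers in brackets are log2 fold changes of day 6 minus day 1. Many of these genes were named for their change in the same day-6 libraries, so their count is not independent of that choice; over all tested genes 145, or 0.949%, were higher and 12, or 0.0785%, were lower. The days differ in time and number of injections, which cannot be told apart here. Of the 63 genes, 57 were higher on day 6 and 6 were lower. Groups of 3 libraries are too small for a test of single outlying samples.

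Monocyte and macrophage genes higher on day 6 were Ccr2 (2.68), Cd33 (2.07), Mpeg1 (2.06), Emr1 (1.95), Lyz2 (1.87), Aif1 (1.82), Folr2 (1.67), Itgam (1.48), Csf1r (1.32) and Sfpi1 (1.02). Their values lay between 1.02 and 2.68. Fc receptor and adaptor genes were Clec4a3 (2.69), Clec4a1 (1.6), Fcgr3 (1.58), Tyrobp (1.48), Btk (1.39) and Inpp5d (1.05). Genes of leukocyte surface, motility and the oxidase were Cybb (2.15), Myo1f (1.97), Cd37 (1.81), Ptprc (1.4), Selplg (1.30), Myo1g (1.22), Cd52 (1.03) and Lcp1 (0.92). Innate sensors were Tlr9 (2.04), Ly86 (1.98), Tlr7 (1.86), Ticam2 (1.67) and Unc93b1 (1.31).

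Complement genes were C3 (1.79), C1qa (1.48), C1qc (1.38) and Cfp (1.28), lysosomal genes Ctss (1.61), Grn (1.01), Ctsc (0.96) and Man2b1 (0.68) and class II genes H2-DMb1 (1.00), H2-Aa (0.83), Cd74 (0.80), H2-Eb1 (0.79) and H2-Ab1 (0.67). Il10ra, the IL-10 receptor subunit gene, was at 1.03 and Cd4, which did not pass against the controls, at 1.96. Cell cycle genes were Ccnb2 (1.15), Ccna2 (1.15) and Kif23 (1.02), whose log2 fold changes of day 1 minus control were -0.46, -0.69 and -0.53. Genes of no list were Pld4 (1.93), Tspan32 (1.81), Gpr34 (1.79), P2ry12 (1.72), Sash3 (1.69), Tifab (1.66), Rassf4 (1.33), Sepp1 (1.22), Mgl2 (1.18) and Pik3cg (1.13).

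The 6 genes lower on day 6 than on day 1 were Saa3 (-2.80), Adamts9 (-1.08), Adamts1 (-1.02), Bcl6b (-0.97), Relb (-0.64) and Sod2 (-0.42). Bcl6b, an endothelial transcriptional repressor gene, did not pass against the controls.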

How the results depend on the processing

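Under RLE and upper-quartile scaling the comparison of day 6 with control had 125 and 157 calls, and without a low-count filter or with the stricter one 117 and 108; 106 of the 108 calls were shared in each of these 4 settings. DESeq2 gave 505 calls, 412 higher and 93 lower, and limma voom 153, 140 higher and 13 lower. The skeletal muscle covariate gave 205 calls, 182 higher and 23 lower. The fit of the 6 libraries compared gave 0 calls, 0 higher and 0 lower, as did the stress keratinocyte covariate. Leaving out 1 of the 9 libraries gave 0 to 155 calls in all, 0 to 150 higher and 0 to 5 lower. The cause of these differences was not tested. Day 6 against day 1 had 157 calls, 735 with DESeq2, 705 with limma voom and 374 with the muscle covariate. Deviations from the group means correlated at -0.642, -0.368 and -0.0277 between same-numbered control and day-6 libraries. With 3 libraries per group and control 1 low in muscle RNA, these values cannot show whether the numbers mark a batch. With the replicate block there were 130 calls, 127 higher and 3 lower, 75 of them shared. The 78 called genes that are named kept their sign in all 1482 refitted values, of which 634 did not pass. Among the other 116 named genes 19 changed sign at least once. Nfkb1 was at 0.023 with upper-quartile scaling, 0.033 with voom, 0.014 with the muscle covariate and 0.060 with the stress keratinocyte covariate. With voom Rela was at -0.0011 and Tbx21 at -0.31. With the stress keratinocyte covariate Bcl3 was at 0.25, Cd99l2 at -0.062, Chuk at 0.032, Il24 at 0.36, Il33 at 0.32, Ivl at -0.0075, Ltbr at 0.047, Nfkbib at -0.072, Rela at -0.018, S100a8 at 0.55, Tbx21 at -1.11 and Tyr at 0.047. Over the fits that left out a library, log2 fold changes ran from -0.36 to 0.059 for Acta2, -0.17 to 0.0035 for Chuk, -0.017 to 0.12 for Ikbkb, -0.22 to 0.021 for Ltbr, -0.084 to 0.090 for Nfkb1, -0.013 to 0.27 for Nfkbia, -0.044 to 0.049 for Rela, -0.50 to 0.050 for Rgs5, -0.40 to 0.72 for Tbx21, -0.38 to 0.00049 for Tgm1 and -0.041 to 0.22 for Tnip1. Genes under 1 CPM had wide errors, as for Tbx21 at 0.15 ± 0.86, which limits what these libraries can show for them.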
